A study of Homo sapiens with 9 samples.

Results

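The genes described are those for replication-dependent and linker histones, the proteins that package DNA into chromatin, in LNCaP cells, an established androgen-responsive line from human prostate cancer. Members were all probe sets (groups of short probes that together measure one transcript) whose platform annotation holds a symbol starting with H1-, H2AC, H2BC, H3C or H4C. There were 78 such probe sets of 54675 on the array, naming 69 gene symbols. Of these, 58 named 1 gene and 20 named several, up to 14 genes for 1 probe set. By class there were 14 probe sets for the linker histone H1, 16 for H2A, 20 for H2B, 10 for H3 and 16 for H4, and 2 named both H2A and H3 genes. All 78 matched a RefSeq gene, and 4 of them named only a pseudogene or a noncoding RNA. Of the 58 with 1 gene, 47 lay on chromosome 6 and 3 on chromosome 1.

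Each of 9 groups had 1 array. The 5 arrays of the inhibitor series were LNCaP cells given 100 µM etoposide for 2 h and then 100 nM dihydrotestosterone (DHT) for 16 h, cells given 100 µM merbarone for 2 h and then DHT in the same way, cells given DHT alone, steady-state cells grown in 10% fetal bovine serum (FBS), and vehicle cells; all but the steady-state cells were kept for 48 h in 5% charcoal-stripped FBS, which removes androgens. The 4 arrays of the shRNA series were sh-TOP2B cells with DHT and with vehicle, and sh-control cells with DHT and with vehicle, all deprived in the same way and sorted by flow cytometry for the GFP that the vectors carry. Etoposide traps topoisomerase II on cut DNA, merbarone blocks its catalytic activity without doing so, and DHT is the androgen that activates the androgen receptor. TOP2B, the isoform targeted, stood at 10.01 with DHT and 10.09 with vehicle on the 2 sh-TOP2B arrays, against 10.87 with DHT and 10.54 with vehicle on the 2 sh-control arrays (log2), a difference of -0.66 that did not pass the test (limma, adjusted p = 0.107).

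Core histones H2A, H2B, H3 and H4 form the spool around which DNA is wound, and H1 binds the DNA between spools. Most of their genes sit in clusters, are read during S phase when DNA is copied, and give mRNAs that end in a stem-loop in place of a poly(A) tail; the stem-loop binding protein SLBP processes these ends. Some, H1-2, H2BC12, H2BC21, H2BC5 and H2AC6 among them, are known to give polyadenylated transcripts as well, in particular in cells that have left the cell cycle. The linker gene H1-10 is an exception, since it is read outside S phase and its mRNA is polyadenylated. Arrays of this type are usually labelled from the poly(A) tail, but the primer is not given in the sources used here, so a level here cannot be split into stem-loop and polyadenylated transcripts.

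Sequences before the start sites are shown for H2BC21 and H2BC4, whose levels differed most between etoposide and merbarone, and for H1-2, whose level did not pass the test between them. Each is 300 bases, 250 before and 50 after the start of the gene, from RefSeq on GRCh38.p14, and all are on the minus strand. They lie at chr1:149886633-149886932 for H2BC21, chr6:26123877-26124176 for H2BC4 and chr6:26056421-26056720 for H1-2. Capitals mark the octamer, ATTTGCAT or its reverse complement ATGCAAAT, known as the binding motif of POU2F1, and the CCAAT box, CCAAT or ATTGG, known as the motif of NF-Y; neither motif overlaps the other.
H2BC21: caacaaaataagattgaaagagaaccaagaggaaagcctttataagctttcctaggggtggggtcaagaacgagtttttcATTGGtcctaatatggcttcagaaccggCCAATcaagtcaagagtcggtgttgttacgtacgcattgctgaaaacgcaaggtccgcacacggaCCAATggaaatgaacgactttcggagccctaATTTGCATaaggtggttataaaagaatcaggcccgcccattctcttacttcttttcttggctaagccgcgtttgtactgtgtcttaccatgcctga
H2BC4: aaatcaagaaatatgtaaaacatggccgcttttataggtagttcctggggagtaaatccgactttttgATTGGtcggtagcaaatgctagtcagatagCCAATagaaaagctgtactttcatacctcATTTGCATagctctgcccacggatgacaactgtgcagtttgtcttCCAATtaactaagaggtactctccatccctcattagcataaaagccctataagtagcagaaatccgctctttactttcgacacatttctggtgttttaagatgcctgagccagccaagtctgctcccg
H1-2: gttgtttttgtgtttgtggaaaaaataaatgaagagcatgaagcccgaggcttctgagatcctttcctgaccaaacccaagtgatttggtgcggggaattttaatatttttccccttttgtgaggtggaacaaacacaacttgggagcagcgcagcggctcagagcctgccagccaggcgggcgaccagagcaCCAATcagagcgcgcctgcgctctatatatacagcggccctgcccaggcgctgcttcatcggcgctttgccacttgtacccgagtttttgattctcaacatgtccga
The octamer began 46 bases before the start in H2BC21 and 123 bases before it in H2BC4, and H1-2 had none. CCAAT boxes numbered 3 in H2BC21, 3 in H2BC4 and 1 in H1-2. A promoter window was held for 59 of the 69 genes. The octamer, searched on both strands, was in 13 of 16 H2B windows (81.2%), 8 of 13 H2A windows (61.5%), 1 of 8 H3 windows (12.5%), 0 of 9 H1 windows and 0 of 13 H4 windows, beside 1.77% of all 35116 windows. The CCAAT box was in 48 of the 59 (81.4%), beside 34.6% of all windows, and among H4 genes it was in 3 of 13. A match describes the letters of the window and is not a binding site.

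Values are log2 expression values from RMA, which makes the arrays' distributions alike. A level below its array's own median, which lay between 5.61 and 5.72, is called dim. Of the 78 histone probe sets, 42 were dim on no array, 21 on some and 15 on all 9. A filter on the mean level over the 9 arrays left 61 of them in the tests: 10 of H1, 15 of H2A, 17 of H2B, 5 of H3, 12 of H4 and both mixed ones. The probe sets left out had low mean levels, among them those for H2BC1 and H3C7, dim on all 9 arrays, and H2AC16, dim on the 5 inhibitor-series arrays and at 6.11 to 6.74 on the 4 shRNA-series arrays. The luminal markers KRT8, KRT18, EPCAM, HOXB13 and FOLH1 were above the median on all 9 arrays. KRT14, DCN and PTPRC were dim on all 9 arrays and KRT5 on 8, while COL1A1 stood at 8.05 to 9.63 and PECAM1 was dim on 4.

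**Figure D1:**
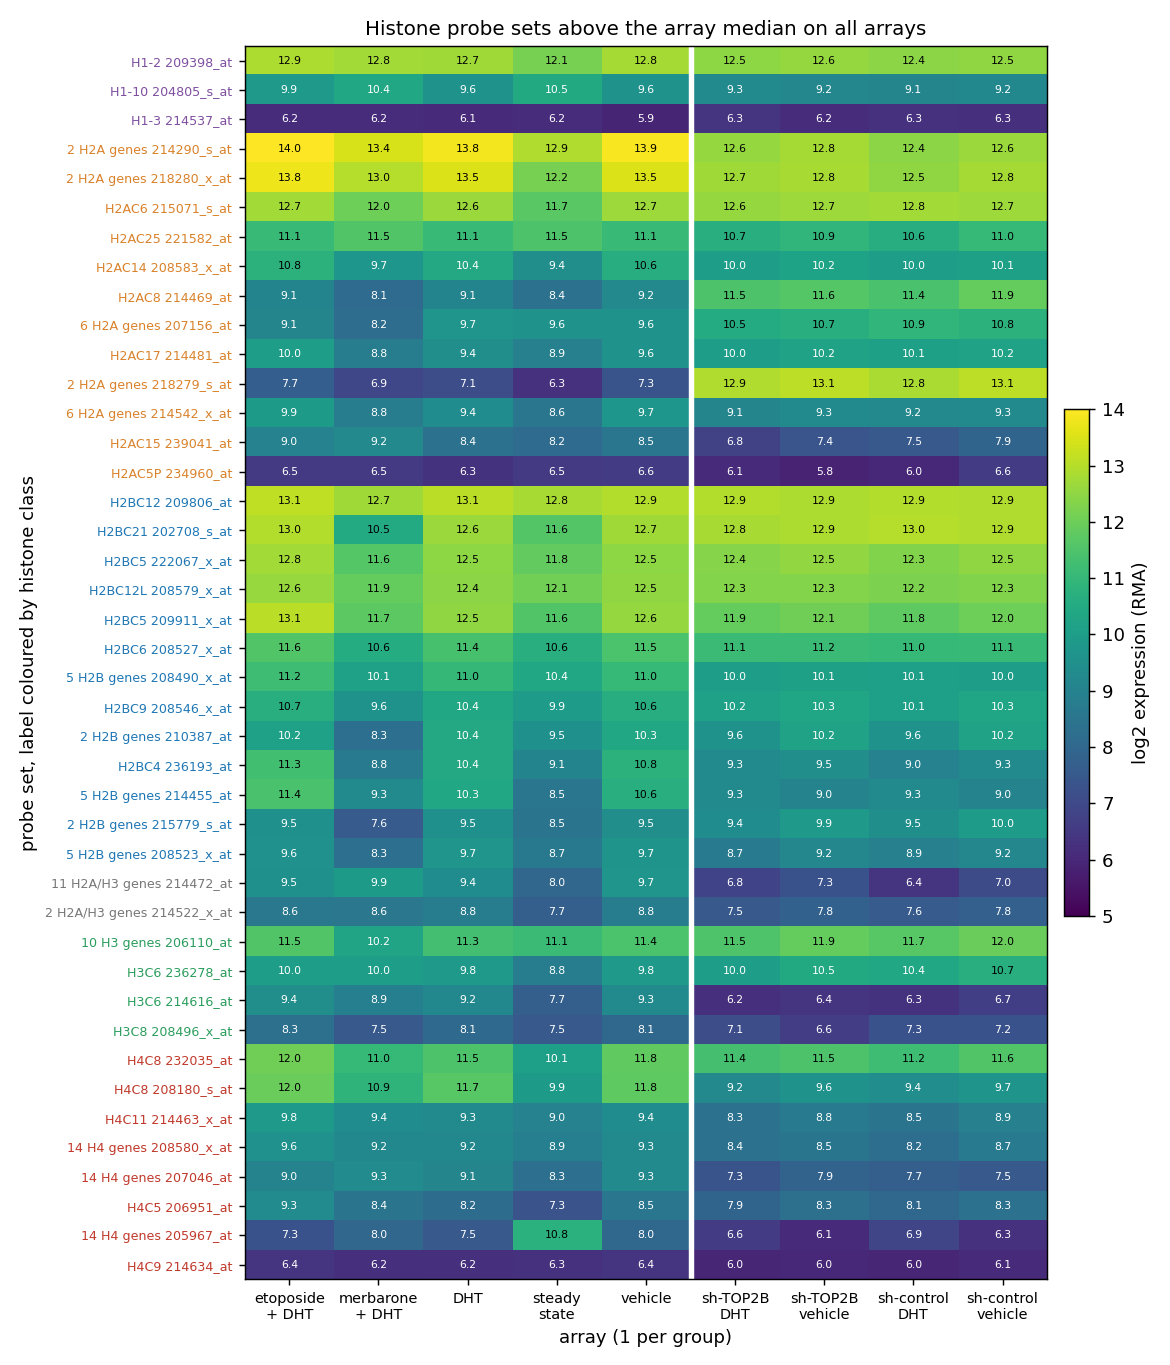
Log2 expression of the 42 histone probe sets that were above the array median on all 9 arrays (rows, with labels coloured by histone class), with 1 array per column and the inhibitor series left of the white line. The merbarone column is darker than the etoposide column in most H2A and H2B rows, and the steady-state column darker than the vehicle column in most rows.

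Tests were limma fits over all 32768 probe sets that passed the filter, with p-values adjusted over all of them and a threshold of 0.05. Since each group had 1 array, the spread came from how far the 3 DHT-against-vehicle differences disagreed, and the lone etoposide, merbarone and steady-state arrays were assumed to vary like those pairs. The labels do not describe separate cultures within a group, and the p-values therefore reflect only how these arrays scatter, which may be technical. Since these are whole-culture samples, fewer cells in S phase and less histone RNA per cell cannot be told apart.

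Histone transcripts were higher with etoposide than with merbarone, both before DHT, and H2B and H2A genes led. Of the 61 probe sets tested, 29 rose (47.5%, beside 9.23% of all probe sets tested) and 1 fell (1.64%, beside 11.3% of all). The median difference, etoposide minus merbarone, was 0.55 over the 61, beside 0.00 over all probe sets tested, and 0.27 over all 78 histone probe sets. It was 0.96 over the 18 tested probe sets shared by several genes and 0.27 over the 43 of 1 gene, and 0.15 over the 38 designed for 1 transcript. Those 38 were taken only by the plain suffix _at in the probe set name. They include sets annotated to several genes, such as 214455_at and 206110_at, and leave out the single-gene sets of H2BC21 and H2BC5. By class, 13 of 17 H2B probe sets rose, 9 of 15 H2A, 5 of 12 H4, 1 of 5 H3 and 1 of 10 H1, and the 1 that fell was of H1. A difference of at least 1 was found for 19 of the 61 upwards and 0 downwards, beside 5.57% and 6.78% of all probe sets tested. Among the 42 that were dim on no array, 26 rose and 1 fell.

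H2BC4, a core H2B gene of the large chromosome 6 cluster, stood at 11.28 with etoposide, 8.76 with merbarone, 10.42 with DHT alone, 9.05 in steady state and 10.78 with vehicle. It was thus highest with etoposide and lowest with merbarone among the inhibitor-series arrays, and between etoposide and merbarone it differed by 2.53 ± 0.15 (SE), a 5.77-fold difference (limma adjusted p = 0.000480). H2BC21, an H2B gene of the smaller chromosome 1 cluster, stood at 12.96 with etoposide, 10.51 with merbarone, 12.64 with DHT alone, 11.60 in steady state and 12.71 with vehicle. The merbarone array was the lowest of all 9 for this gene, and the difference from etoposide was 2.45 ± 0.09, or 5.48-fold (limma adjusted p = 0.000423). On the 4 shRNA-series arrays H2BC21 stayed within 12.82 to 12.99 and H2BC4 within 9.0 to 9.46. H2BC5, another H2B gene, is measured by 2 probe sets, which were higher with etoposide by 1.33 and 1.12. H2BC9 was higher by 1.04 and H2BC6 by 0.99. H2BC12, the H2B probe set for 1 gene with the highest mean level, stood at 13.13 with etoposide and 12.73 with merbarone, a difference of 0.39 ± 0.08 (limma adjusted p = 0.0145). That call was lost without the sh-TOP2B pair (adjusted p = 0.0582), without the intensity trend (0.197) and with arrays centred on housekeeping genes (0.302).

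Probe sets shared by several H2B genes went the same way. The probe set 214455_at, annotated to 5 H2B genes and designed on the H2BC4 record, stood at 11.41 with etoposide and 9.30 with merbarone, higher by 2.11 ± 0.22. For the pair H2BC11 and H2BC8, the differences were 1.93 and 1.87 in their 2 shared probe sets. Another 2 probe sets of the same 5 H2B genes, 208523_x_at and 208490_x_at, were higher by 1.27 and 1.06. Which of the sharing genes was measured in these cannot be told. H2A genes were higher with etoposide too: H2AC17 was at 10.00 with etoposide and 8.80 with merbarone (1.19 ± 0.14), H2AC14 was higher by 1.05 and H2AC8 by 0.94. H2AC8 stood at 9.07 both with etoposide and with DHT alone, and at 8.13 with merbarone. H2AC6, the single-gene H2A probe set with the highest mean level, was at 12.74 with etoposide and 12.03 with merbarone, higher by 0.71 ± 0.09, a call lost without the intensity trend (limma adjusted p = 0.0625). The probe set 214542_x_at, shared by 6 H2A genes, was higher by 1.08.

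Among H3 genes, the probe set 206110_at, shared by 10 of them, was at 11.54 with etoposide and 10.25 with merbarone, higher by 1.30 ± 0.12 (limma adjusted p = 0.00112). H3C6, the single-gene H3 probe set with the highest mean, stood at 10.02 with etoposide and 10.00 with merbarone, and its other probe set differed by 0.58 and did not pass the test (adjusted p = 0.105). For H4, both probe sets of H4C8 rose, by 1.09 and 1.00, and H4C5 rose by 0.88. The probe set 214516_at, shared by 14 H4 genes, was at 7.26 with etoposide and dim with merbarone, and was higher by at least 1.64. Another of the same 14 genes, 208181_at, was at 7.43 with etoposide and 6.14 with merbarone, higher by 1.30. The remaining probe sets of these 14 genes did not pass the test and differed in sign. The differences were 0.34 for 208580_x_at, -0.31 for 207046_at and -0.68 for 205967_at. Of the 10 linker probe sets tested, 8 did not pass the test. H1-2, the linker probe set with the highest mean level, stood at 12.89 with etoposide and 12.75 with merbarone, a difference of 0.14 ± 0.08 that did not pass the test (limma adjusted p = 0.262). H1-6, a linker gene known from testis, was at 6.91 with etoposide and 5.72 with merbarone, higher by 1.20 ± 0.27 (adjusted p = 0.0229). The array medians were 5.68 for etoposide and 5.61 for merbarone, so the merbarone level was close to dim. The other H1-6 probe set was dim with merbarone and did not pass the test (adjusted p = 0.200). H1-10 was the 1 that fell, at 9.87 with etoposide and 10.40 with merbarone, by -0.54 ± 0.15 (adjusted p = 0.0443), and its adjusted p lay above the threshold without the sh-control pair (0.0719) or the sh-TOP2B pair (0.117).

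**Figure D2:**
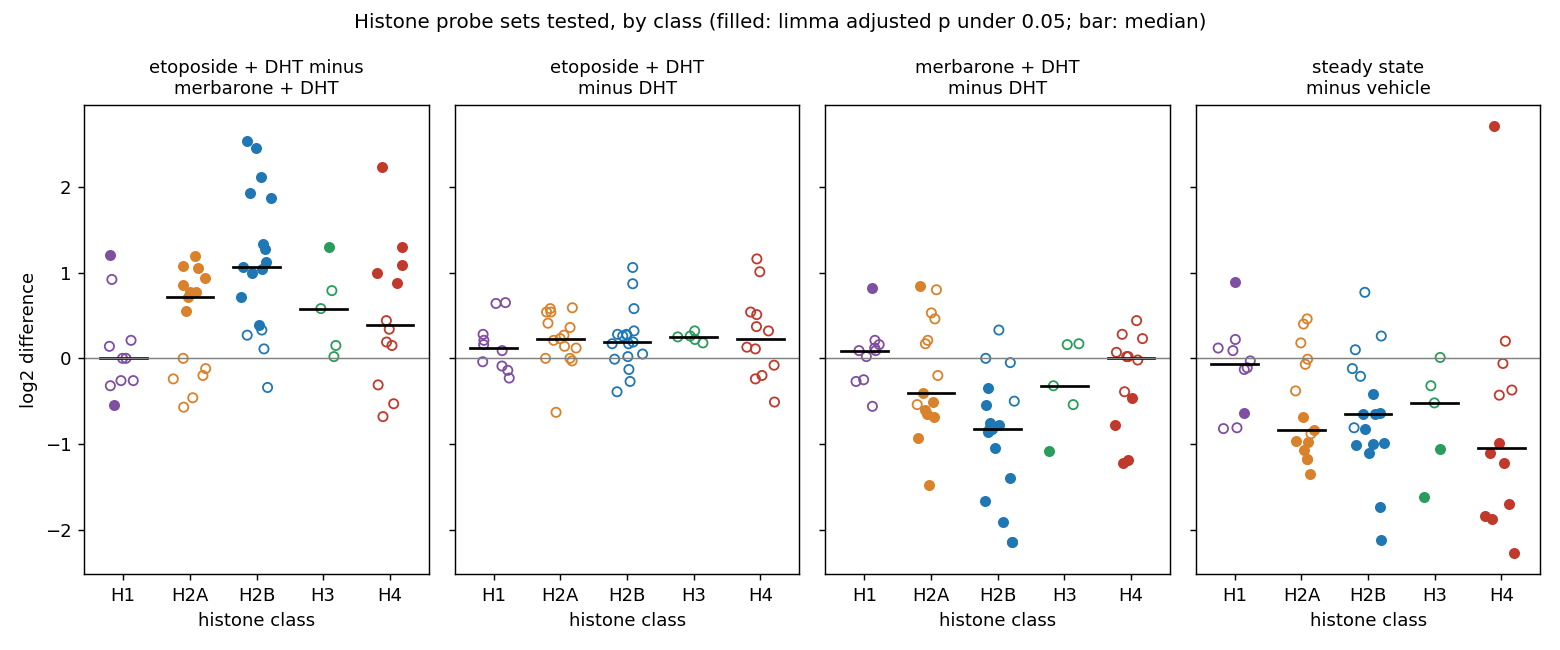
Log2 differences of the 59 tested histone probe sets of a single class, in 4 comparisons of arrays of the inhibitor series, with each circle 1 probe set, filled circles those past the limma threshold and bars the class medians. H2B probe sets lie highest in etoposide minus merbarone (median 1.06), no circle is filled in etoposide minus DHT, and 1 H4 probe set stands at 2.71 in steady state minus vehicle.

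Set against DHT alone, the inhibitors differed in which had histone probe sets past the test. With merbarone 25 of the 61 fell (41.0%, beside 11.6% of all) and 2 rose (3.28%, beside 10.1%), with a median of -0.32, beside 0.01 over the 38 designed for 1 transcript. With etoposide 0 rose and 0 fell in limma (beside 0.186% and 0.504% of all), with a median of 0.21 and 44 above 0 against 15 below. At an unadjusted p under 0.05, 15 were higher and 1 lower with etoposide, beside 4.38% higher and 8.49% lower of all probe sets tested. With merbarone 5 were higher and 26 lower at that p, beside 15.6% higher and 17.2% lower of all. The adjusted threshold depends on how many of all probe sets changed, so it was stricter for etoposide than for merbarone. The 2 comparisons and that of etoposide with merbarone share arrays, so their values are given side by side and are not independent of each other.

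With merbarone, 13 of 17 H2B probe sets fell, 7 of 15 H2A, 4 of 12 H4 and 1 of 5 H3, and no H1 probe set did. H2BC21 was at 10.51 with merbarone and 12.64 with DHT alone, a difference of -2.14 ± 0.09, or 4.39-fold lower (limma adjusted p = 0.000227). H2BC4 was at 8.76 with merbarone and 10.42 with DHT alone (-1.66 ± 0.15), and the 2 probe sets shared by H2BC11 and H2BC8 differed by -2.14 and -1.91. The H2A probe set with the largest fall, 207156_at, names 6 H2A genes and differed by -1.48. Among other shared probe sets, 208523_x_at and 214455_at, of 5 H2B genes, differed by -1.40 and -1.05, 206110_at, of 10 H3 genes, by -1.08, and 208181_at, of 14 H4 genes, by -1.19. The probe set 214516_at, of the same H4 genes, was dim with merbarone and lower by at least 0.64. The remaining probe sets of these H4 genes did not fall: 208580_x_at differed by 0.02, 207046_at by 0.23 and 205967_at by 0.44, none past the test. The call of 214455_at was lost without the intensity trend (adjusted p = 0.0611). H2AC8 differed by -0.93 and H2BC6 by -0.83, and H2BC5 by -0.83 and -0.75 in its 2 probe sets. H2AC6, at 12.03 with merbarone and 12.63 with DHT alone, differed by -0.60 and H2BC12 by -0.35. Both calls were lost without the intensity trend (adjusted p = 0.0872 for H2AC6 and 0.249 for H2BC12) and with arrays centred on housekeeping genes (0.0724 for H2AC6 and 0.399 for H2BC12). The 2 that rose were H1-10, at 10.40 with merbarone and 9.59 with DHT alone (0.82 ± 0.15, adjusted p = 0.00950), and H2AC15, at 9.23 with merbarone and 8.39 with DHT alone (0.84 ± 0.22, adjusted p = 0.0392). The H2AC15 call was lost without the sh-control pair (adjusted p = 0.0682) or the sh-TOP2B pair (0.0682). H1-2 was at 12.75 with merbarone and 12.73 with DHT alone.

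With etoposide the largest difference from DHT alone was that of H4C5, at 9.33 with etoposide and 8.17 with DHT alone, 1.16 ± 0.19, which missed the threshold (limma adjusted p = 0.0591). It passed in 4 of the alternative analyses, with adjusted p from 0.0338 to 0.0484. The shared H2B probe set 214455_at was at 11.41 with etoposide and 10.35 with DHT alone (1.06, adjusted p = 0.101), and the shared H4 probe set 214516_at at 7.26 with etoposide and 6.25 with DHT alone (1.01, adjusted p = 0.171). H2BC4 was 0.87 above and H2BC21 0.32 above DHT alone, neither past the test. The largest difference downwards was that of 207156_at, shared by 6 H2A genes (-0.63, limma adjusted p = 0.161). Its counterpart 214542_x_at, of the same genes, was 0.54 above DHT alone and did not pass either.

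**Figure D3:**
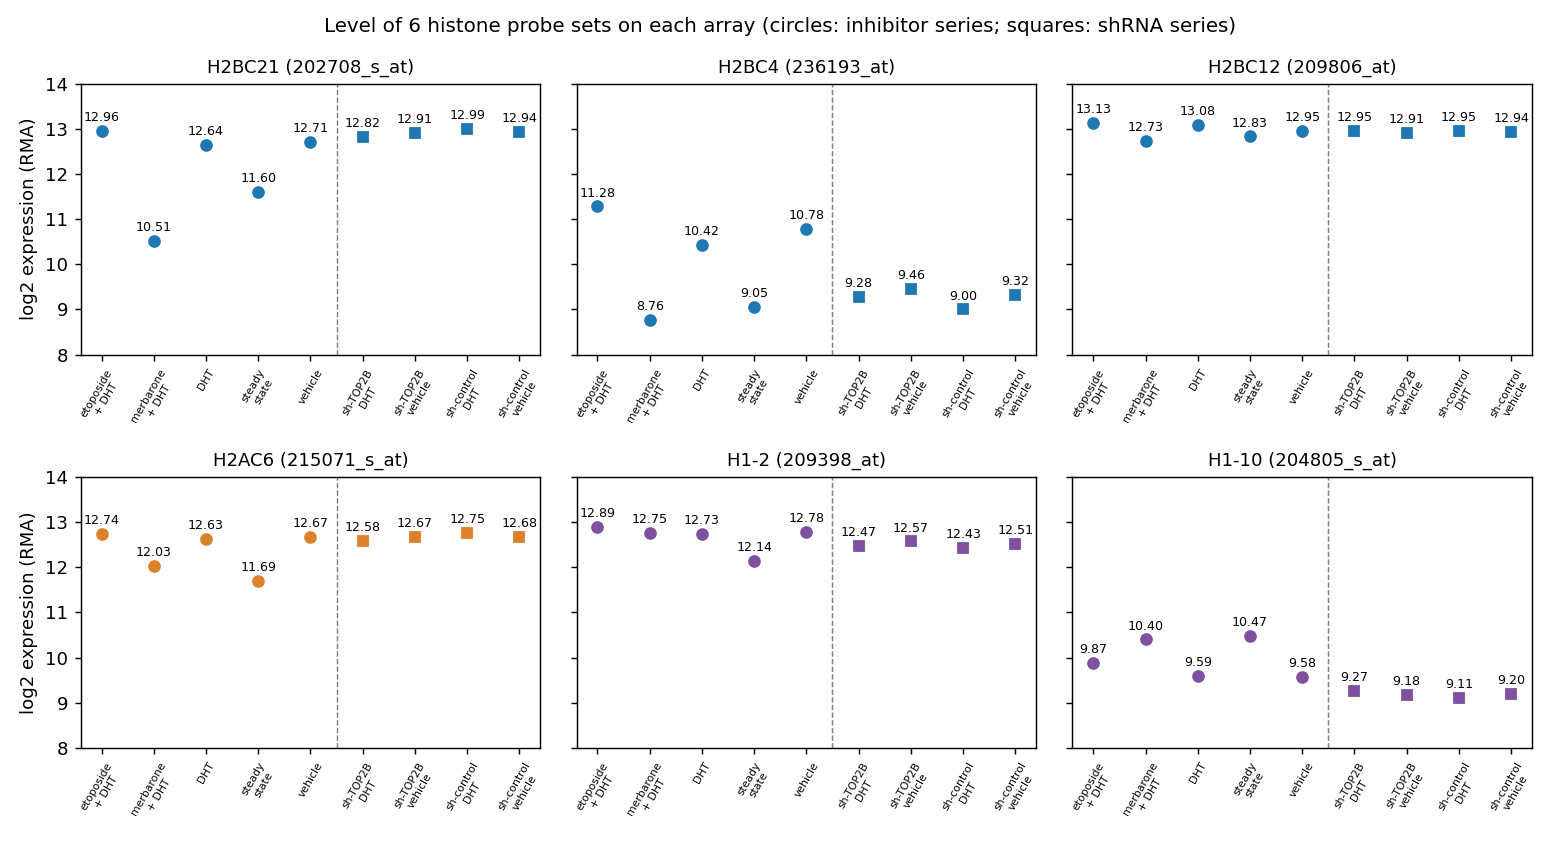
Log2 expression of 6 histone probe sets on each of the 9 arrays, with circles for the inhibitor series, squares for the shRNA series and 1 point per group. H2BC21 and H2BC4 are lowest with merbarone at 10.51 and 8.76, H2BC12 lies within 12.73 to 13.13 on all arrays, and H1-10 is highest in steady state at 10.47 and with merbarone at 10.40.

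The promoter motifs can be set beside these differences within the H2A and H2B genes that have a probe set of their own; this grouping was made after the values were seen. Of 12 tested probe sets whose gene has the octamer in its window, 9 rose with etoposide against merbarone (median 0.96), and of 8 whose gene lacks it, 2 did (median 0.08). Of all probe sets tested, 9.23% rose and 11.3% fell in that comparison. With merbarone against DHT alone, 9 of the 12 fell (median -0.66), and of the 8, 2 fell and 1 rose (median 0.23). There, 11.6% of all probe sets fell and 10.1% rose. In steady state against vehicle, 8 of the 12 fell (median -0.75) and 2 of the 8 (median -0.30), beside 9.09% of all probe sets. With etoposide against DHT alone, 0 of either passed in limma, and the order of the medians turned, at 0.15 with the octamer and 0.28 without. The 2 of the 8 that rose with etoposide against merbarone, and the 2 that fell in the other comparisons, were the 2 probe sets of H2BC5. H2AC15 and H2AC25 also gave 2 of the 8 each, so these probe sets are not separate genes. Both groups held probe sets that were dim on some arrays. The groups were not tested against each other. Over all classes, of 28 probe sets without the octamer, 6 rose and 1 fell with etoposide against merbarone (median 0.17). In steady state, 1 of these rose and 9 fell (median -0.38). With merbarone against DHT alone, 2 of them rose and 4 fell (median 0.02). H2A and H2B genes often lie head to head: 11 pairs had windows that overlap, and in the H2AC6 and H2BC4 pair, which shares 255 bases, the difference between etoposide and merbarone was 0.71 for H2AC6 and 2.53 for H2BC4. The octamer shown for H2BC4 lies within these shared bases, so both genes count with the same octamer and are not independent in that group. In the H2AC15 and H2BC15 pair, which shares 293 bases, it was -0.24 and -0.57 in the 2 H2AC15 probe sets and 0.27 for H2BC15, none past the test; no other pair had tested single-gene probe sets for both genes.

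Steady-state cells, grown in full serum, had lower histone probe set levels than androgen-deprived vehicle cells. Of the 61, 31 fell (50.8%, beside 9.09% of all) and 2 rose (3.28%, beside 8.71% of all), with a median of -0.65, beside 0.00 over all probe sets tested. The median was -0.38 over all 78 histone probe sets and -0.26 over the 38 designed for 1 transcript, and it was -1.0 over the 18 shared by several genes and -0.42 over the 43 of 1 gene. As measured, 19 of the 61 were at least 1 lower and 1 was at least 1 higher, beside 6.56% and 4.57% of all probe sets tested. By class, 11 of 17 H2B probe sets fell, 8 of 15 H2A, 7 of 12 H4, 2 of 5 H3, both mixed ones and 1 of 10 H1. Among the 42 that were dim on no array, 28 fell and 2 rose. On the same arrays, 31 of 33 DNA replication genes rose in steady state (93.9%) and 0 fell, with a median of 2.06; RRM2, a subunit of ribonucleotide reductase, rose by 5.40, GINS1, of the replicative helicase, by 4.05 and RFC3, of the clamp loader, by 3.50. TOP2A, which is made in dividing cells, was at 10.42 in steady state and dim with vehicle, at 4.42. It was dim as well with DHT alone (4.5), etoposide (2.45) and merbarone (3.44). On the shRNA-series arrays, whose cells were also deprived, it stood at 8.82 to 9.17.

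H4C8 was at 9.91 in steady state and 11.75 with vehicle in one probe set (-1.84 ± 0.14, limma adjusted p = 0.000384) and at 10.09 in steady state and 11.79 with vehicle in the other (-1.70 ± 0.12, adjusted p = 0.000326). H2BC4 was at 9.05 in steady state and 10.78 with vehicle (-1.73 ± 0.15). H3C6 fell in both probe sets, by 1.62 and 1.06 on the log2 scale, and the second call was lost without the intensity trend (adjusted p = 0.0501). H4C5 differed by -1.22, H2AC14 by -1.17 and H2BC21, at 11.60 in steady state and 12.71 with vehicle, by -1.11. Shared probe sets went furthest: 214455_at, of 5 H2B genes, stood at 8.52 in steady state and 10.64 with vehicle (-2.12), and 208181_at, of 14 H4 genes, was dim in steady state at 5.34, against 7.61 with vehicle, lower by at least 1.99. Of the H2A and H3 genes, 214472_at, which names 11, differed by -1.75, and 214522_x_at, which names H3C4 and H2AC7, by -1.07. The 2 probe sets 218280_x_at and 218279_s_at, shared by H2AC18 and H2AC19, differed by -1.35 and -1.07, 214542_x_at by -1.17 and 208523_x_at by -1.01. Not all shared probe sets fell: 207156_at, of the same H2A genes as 214542_x_at, stood at 9.60 in steady state and 9.61 with vehicle (-0.01). The probe set 206110_at, shared by H3 genes, differed by -0.32 and did not pass the test (limma adjusted p = 0.115). H4C4 and 214516_at were dim in steady state and lower by at least 0.62 and 0.97. The H4C4 call was lost without the sh-control pair (adjusted p = 0.0583) or the sh-TOP2B pair (0.0750), and that of 208523_x_at without the intensity trend (0.0604). H2BC5 differed by -1.0 and -0.64 in its 2 probe sets. The linker H1-2 was at 12.14 in steady state and 12.78 with vehicle (-0.64 ± 0.08, adjusted p = 0.00231), the lowest of its 9 values. That call was lost with arrays centred on housekeeping genes (adjusted p = 0.117) and without the intensity trend (0.0804). H2AC6 fell by 0.98, while H2BC12 stood at 12.83 in steady state and 12.95 with vehicle and did not pass the test (-0.12, adjusted p = 0.395).

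The 2 that rose in steady state were H1-10 and a shared H4 probe set. H1-10 was at 10.47 in steady state and 9.58 with vehicle (0.89 ± 0.15, limma adjusted p = 0.00793). The probe set 205967_at, annotated to 14 H4 genes and designed on the H4C3 record, was at 10.75 in steady state and 8.04 with vehicle, a rise of 2.71 ± 0.40 or 6.54-fold (adjusted p = 0.00497). Its level was 7.27 with etoposide, 7.96 with merbarone, 7.52 with DHT alone and 6.10 to 6.87 on the shRNA-series arrays, so the steady-state array alone stood high. The 5 probe sets annotated to these same 14 genes did not move alike: their differences between steady state and vehicle ran from -2.27 to 2.71, and only 205967_at was higher.

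**Figure D4:**
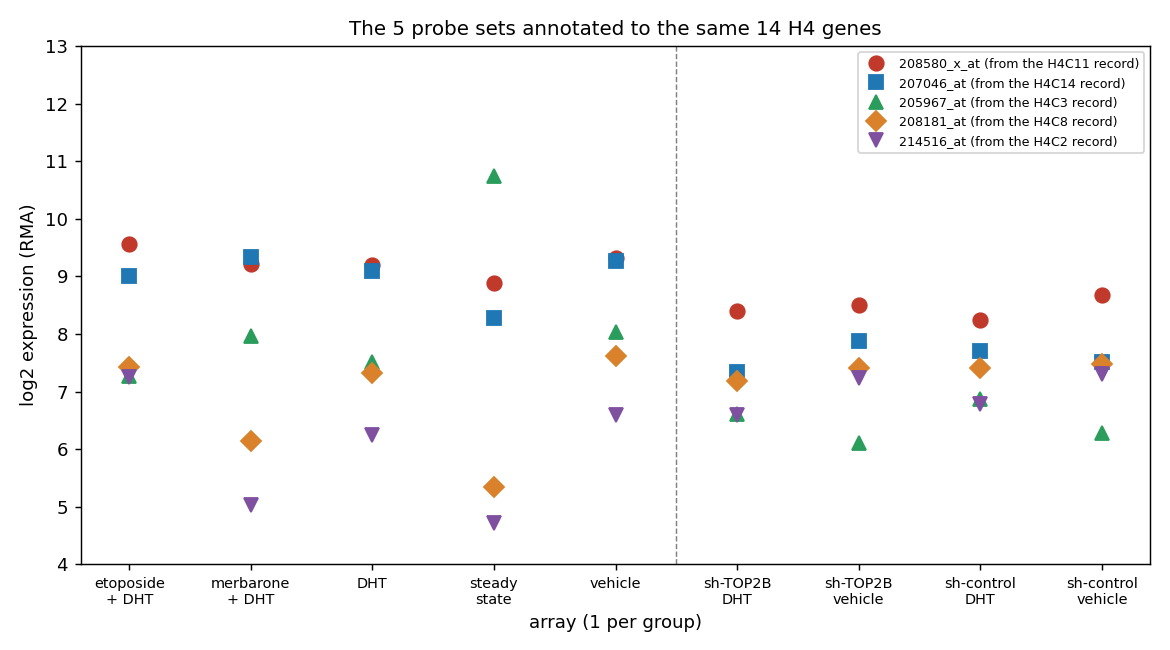
Log2 expression of the 5 probe sets annotated to the same 14 H4 genes on each array, with the gene record each was designed on in the legend. In steady state 205967_at stands at 10.75 and the other 4 stand at 4.72 to 8.89.

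No histone probe set passed the test for DHT or for TOP2B knockdown. For DHT against vehicle over 3 pairs, 0 of 61 rose and 0 fell in limma (beside 0.287% and 0.0275% of all), with a median of -0.16, beside -0.02 over all probe sets tested. With arrays centred on housekeeping genes the histone median was -0.31 and that of all probe sets -0.17. At an unadjusted p under 0.05, 0 were higher and 16 lower, beside 7.36% higher and 8.56% lower of all. The difference was below 0 in all 3 pairs for 32 of the 61 and above 0 in all 3 for 3. The pair medians were -0.07 in the inhibitor series, -0.17 in sh-control cells and -0.13 in sh-TOP2B cells, and those of all probe sets tested were 0.00, -0.03 and -0.01. Without the inhibitor-series pair, 12 of the 61 fell and 0 rose, while 6.58% of all probe sets fell and 6.4% rose. Among these 12, the 2 probe sets shared by H2BC11 and H2BC8 differed by -0.59 and -0.49, and H2AC25 by -0.35. A test of whether the DHT difference varied between the inhibitor and shRNA series called 0 of the 61 in limma, beside 1.22% of all probe sets. At an unadjusted p under 0.05 there were 7 (11.5%), beside 11.1% of all.

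For sh-TOP2B against sh-control, 0 rose and 0 fell in limma (beside 0.623% and 0% of all), with a median of -0.01, beside -0.02 over all probe sets tested. At an unadjusted p under 0.05 there were 4 (6.56%), beside 7.0% of all. With DHT and with vehicle, H2BC21 was at 12.82 and 12.91 on the sh-TOP2B arrays and at 12.99 and 12.94 on the sh-control arrays (-0.10 ± 0.06, adjusted p = 0.852), and H2BC4 at 9.28 and 9.46 in sh-TOP2B cells and 9.0 and 9.32 in sh-control cells (0.21 ± 0.10, adjusted p = 0.787). H2AC15 differed by -0.64 and H2BC11 by 0.51, and H4C13, dim on both sh-control arrays, was higher by at least 0.31, none past the test.

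The 2 series could not be compared by a test, since cell handling and array series go together. Over the 78 members, the median of the shRNA-series arrays was at least 1 above that of the inhibitor series for 10 probe sets and at least 1 below it for 17. Probe sets for one gene pair disagreed: 218279_s_at, shared by H2AC18 and H2AC19, was at 12.84 to 13.11 on shRNA-series arrays and 6.27 to 7.68 on inhibitor-series arrays, while 214290_s_at, shared by the same genes, was at 12.42 to 12.78 in the shRNA series and 12.94 to 13.99 in the inhibitor series. H2AC25 had 1 probe set at 9.97 to 10.27 in the shRNA series and 5.06 to 6.04 in the inhibitor series, and another at 10.62 to 11.02 in the shRNA series and 11.08 to 11.54 in the inhibitor series. The 3' minus 5' difference of the beta-actin control probe sets was 2.38 to 3.09 on the shRNA-series arrays and 0.38 to 0.70 on the inhibitor-series arrays, and its part in these levels was not tested.

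Genes that make, process and escort histones were read in the same comparisons. Of 12 genes of histone transcription and mRNA processing, 4 fell with etoposide against merbarone (33.3%, beside 11.3% of all probe sets) and 0 rose (median -0.49); SLBP was at 10.56 with etoposide and 11.95 with merbarone (-1.40), and LSM11, of the U7 particle that cuts histone mRNA ends, differed by -1.31, LSM10 by -0.91 and HINFP, a factor for H4 genes, by -0.88. With merbarone against DHT alone 4 rose (33.3%, beside 10.1% of all) and 0 fell (median 0.46), SLBP by 1.34, LSM11 by 1.15 and HINFP by 1.04. In steady state against vehicle 3 rose (25%, beside 8.71% of all), LSM11 by 1.05, SLBP by 1.03 and ERI1, which trims histone mRNA, by 0.94. Thus SLBP was higher where histone probe sets were lower in these 3 comparisons, which share arrays in part.

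Of 9 core histone variants that were not members, H2AX, H3-3A and CENPA rose with etoposide against merbarone (33.3%, beside 9.23% of all). H2AX, the variant that is phosphorylated at DNA breaks, was at 9.51 with etoposide and 8.07 with merbarone (1.43). It fell with merbarone against DHT alone, by 1.78 on the log2 scale, and rose in steady state by 2.26, as did H2AZ1 by 0.49. H3-3A, dim with merbarone at 5.17, was higher with etoposide than with merbarone by at least 0.50 and lower with merbarone than with DHT alone by at least 0.92, and CENPA, the centromere variant, was higher with etoposide by 0.99. Of 18 histone chaperones, 6 rose in steady state (33.3%, beside 8.71% of all) and 0 fell (median 0.56), with ASF1B higher by at least 3.38 and HJURP by at least 3.24, and with ANP32E at 10.36 in steady state and 9.34 with vehicle. With merbarone against DHT alone, NAP1L4, NASP and SUPT16H fell (16.7%, beside 11.6% of all), by 0.89, 0.76 and 0.66. Against merbarone, etoposide gave 2 chaperones up, NAP1L4 by 0.73 and SUPT16H by 0.51, and 1 down, NAP1L1, which at 11.1% and 5.56% is near the shares of all probe sets, 9.23% higher and 11.3% lower.

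In the DNA replication list, with etoposide against merbarone, 2 of 33 rose (6.06%) and 4 fell (12.1%), with a median of -0.16, which is close to the 9.23% higher and 11.3% lower of all probe sets. MCM2 differed by -1.63, RFC2 by -1.50 and RRM1 by -0.69. With merbarone against DHT alone 5 rose (15.2%, beside 10.1% of all) and 4 fell (12.1%, beside 11.6%), TYMS by 1.71 upwards and CDC45 and RRM2, both dim with merbarone, by at least 0.52 and 0.48 downwards. With etoposide against DHT alone 2 rose (6.06%, beside 0.186% of all) and 1 fell (3.03%, beside 0.504%); TYMS rose by 2.23 and PCNA by 1.17, and RRM2, dim with etoposide, was lower by at least 0.42.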

How the data were processed

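LNCaP RNA was measured on 9 arrays of the Affymetrix U133 Plus 2.0 type, 1 per group. The deposited values are log2 expression values made by the authors with RMA, per the submitters' processing notes; its version is not given in the sources used here. Samples were grouped by GEO's labels. Tests used R 4.3.3 and limma 3.58.1: all probe sets but the manufacturer's controls, with a mean over the 9 arrays at or above the 40th percentile (32768), in an additive fit of 3 backgrounds, DHT and the lone arrays, with 2 residual and 4.77 prior degrees of freedom, two-sided, Benjamini-Hochberg adjusted, threshold 0.05. Arrays give no counts, so their number limits the precision. Of all probe sets, 41097 had 1 symbol, 1801 several and 11777 none. The text names the class leaders by mean level, the largest differences past the test, all members that differ by at least 1, and the 3 largest of each related list; other genes were named after their values were seen. Members and lists were chosen with earlier results of these data known, as were the octamer groups. Sequences are RefSeq's (GRCh38.p14). The fit was tested on simulated data in which all arrays, the lone ones included, were given the fitted spread. That could not check whether the lone arrays vary like the pairs. Alternatives were other filters, scalings and probe set choices, no intensity trend, a fitted reference level, and leaving out each DHT pair. Some genes are not reported here.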

Additional observations from a re-analysis of the deposited data

How the results depend on the processing

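The analysis was already paired by background: DHT and knockdown differences were taken within the 3 DHT pairs and the 2 knockdown pairs. The labels give no replicate numbers that could serve as a further block. Of the values named per probe set under the alternatives, 742 kept direction and side of the threshold, 36 lost the call, 6 gained it and 4 turned sign; the cause was not tested unless fewer probe sets were tested. Etoposide against merbarone gave 29 higher and 1 lower. With 1 probe set per gene and with probe sets designed for 1 transcript, 13 were higher each, of 26 and 38 tested. The latter were taken by the suffix _at and include some annotated to several genes. The 1 lower became 0 without a filter, without the intensity trend, with housekeeping centring, with renewed quantile normalization and with single-transcript probe sets, and leaving out a pair gave 26 to 31 higher and 0 to 3 lower. Steady state against vehicle gave 2 higher and 31 lower; both smaller choices of probe sets gave 1 and 14, no trend gave 20 lower, and leaving out a pair gave 23 to 30 lower. Merbarone against DHT gave 2 higher and 25 lower; the lower count was 12 with 1 probe set per gene, 14 without the trend and 11 with single-transcript probe sets, whose median was 0.01 and so of opposite sign to -0.32. The higher count was 1 without a filter, without the trend, with housekeeping centring, with single-transcript probe sets and without the sh-control or the sh-TOP2B pair. With the 60th percentile filter the medians of the histone probe sets were 0.87, -0.97 and -0.54 in these 3 comparisons. Etoposide against DHT gave 0; it gave 3 higher with the 60th percentile filter, 3 with a fitted reference, 2 with housekeeping centring and 1 with 1 probe set per gene. DHT against vehicle gave 0 lower, 1 with housekeeping centring and 0 to 12 when a pair was left out. Signs turned, none past the test, for H2BC12 under DHT (-0.09, housekeeping), H2AC6 under DHT (-0.07 to 0.01 when a pair was left out, above 0 without the sh-TOP2B pair), and H1-2 (-0.05) and H4C8 (-0.06) in sh-TOP2B against sh-control (housekeeping). Single arrays and shared probes limit every result.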
